A study of Mus musculus with 10 samples.

Results

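The Cbx8 hairpin was set against the control hairpin in 7 of the 10 libraries of the series, namely all 3 titled shCBX8 (replicates 1, 2 and 6) and all 4 titled shCTR (replicates 1, 2, 5 and 6). The comparison took in every gene with enough reads to be tested, which was 16669 of the 41091 gene identifiers counted. Both groups were adherent cultures of adult olfactory epithelium from C57BL6 mice, taken 9 days after lesion with methimazole, a drug that kills the epithelium, which then grows back. The dissociated cells grew on gelatin-coated plastic in NeuroCult medium with EGF, FGF2 and heparin. The shCBX8 cultures received a lentivirus with a short hairpin RNA against Cbx8, and the shCTR cultures a lentivirus with a non-targeting scrambled hairpin, so that the lesion, the medium and the virus were common to both. The series' description calls the replicates biological and gives 3 per treatment, whereas 4 shCTR libraries are at hand. The number of hairpin sequences per group, and whether replicates came from separate animals or cultures, are not given in the sources used here. P-values therefore measure the spread between these libraries, which may be technical. Library input was 500 ng of total RNA, and the kit keeps strand.

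CBX8 is a chromodomain subunit of canonical Polycomb repressive complex 1 (PRC1). Such subunits dock the complex onto histone H3 that has been methylated by Polycomb repressive complex 2 (PRC2), and PRC1 then ubiquitinates histone H2A and compacts chromatin over developmental genes. The Cdkn2a locus and the Hox clusters are classical targets. The olfactory epithelium is renewed by 2 kinds of basal stem cell, of which the horizontal basal cells carry p63 and basal keratins, and it lies on a connective tissue layer of fibroblasts.

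Gene counts were 22763014 to 35414943 in the shCTR libraries and 31665704 to 43731320 in the shCBX8 libraries. Background differed between the groups, in part with shCBX8 2 among the controls. Reads on the forward strand, opposite to the one counted, were 6.34 to 10.4% of stranded counts in shCTR, 3.57 and 3.83% in shCBX8 1 and 6, and 7.75% in shCBX8 2. Unmapped reads made up 9.83 to 21.7% of the reads in shCTR, highest in replicates 1 and 2, against 7.28 to 7.81% in shCBX8, and Gm10800, a predicted gene in satellite-like repeat and the most abundant entry, took 1.96 to 10.4% against 1.12 to 1.51% of gene counts. Its log2 fold change, always shCBX8 over shCTR, was -2.40 (standard error, SE, 0.61, adjusted p = 0.0180), a call that ended without shCBX8 1, without shCBX8 6 or without shCTR 1 and 2 (adjusted p = 0.0590 to 0.0696). The part of this background in the results was not tested, but results are also given without shCTR 1 and 2 where that ends a call. Along the first principal component of the 7 libraries (65.0% of the variance), shCBX8 1 and 6 lay at 110.54 and 117.7, shCBX8 2 at 35.33, and the 4 shCTR libraries between -111.44 and -34.99. Levels are CPM, the reads of a gene per 1000000 reads of a scaled library, and a gene passed at an adjusted p under 0.05 over all genes tested. Series of values run in the order 1, 2, 5, 6 for shCTR and 1, 2, 6 for shCBX8, and ± marks the SD.

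The targeted gene was lower in every shCBX8 library. Cbx8 stood at 12.4, 15.9, 10.2 and 10.8 CPM in control and at 4.99, 5.14 and 4.71 CPM with the Cbx8 hairpin. The groups did not overlap, and the shCBX8 values were nearly equal to each other. Its log2 fold change was -1.31 (SE 0.22, adjusted p = 0.00416), and exact permutation of log2(CPM + 1) gave a two-sided p of 0.0286, the smallest that 35 splits allow. Against the shCBX7 libraries the value was -1.33 (adjusted p = 0.00578). Cbx8 passed under each alternative, between -1.40 and -1.10. Other chromodomain paralogs of PRC1 differed in their response. Cbx6 fell by 1.21 on the log2 scale (SE 0.27, adjusted p = 0.0112), from 163, 283, 144 and 167 CPM to 76.1, 96.4 and 72.6 CPM. Cbx2 (-0.48, SE 0.18, adjusted p = 0.0651) and Cbx7 (-0.17, SE 0.47, adjusted p = 0.80) did not pass. Cbx2 passed with DESeq2 (adjusted p = 0.0228) and without shCBX8 2 (0.0355), and under no other alternative. Exact permutation gave the smallest possible p, 0.0286, for Cbx2 and Cbx6 as well, and 0.914 for Cbx7. The sign of Cbx7 turned with some alternatives.

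**Figure D1:**
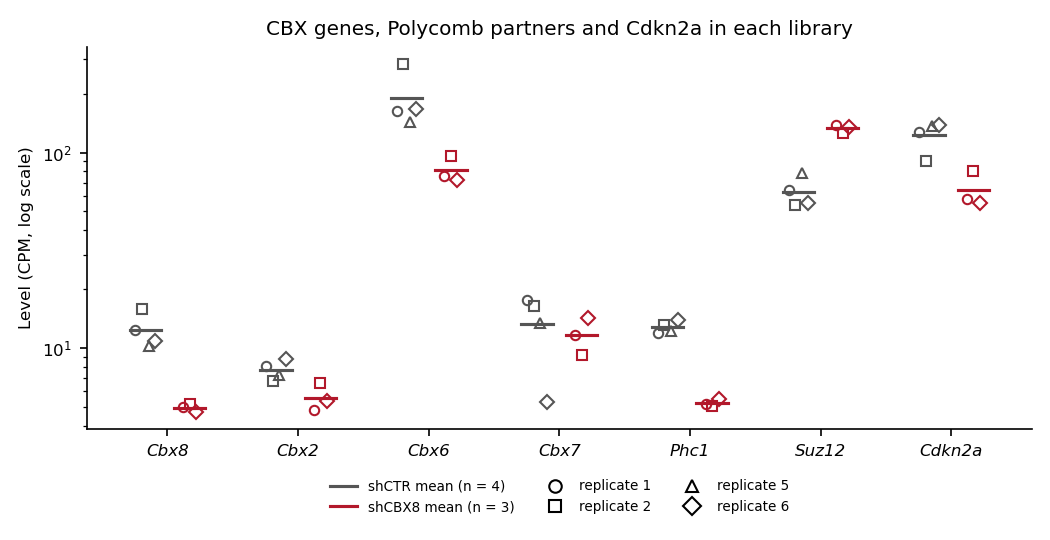
Levels (CPM, log axis) of Cbx8, Cbx2, Cbx6, Cbx7, Phc1, Suz12 and Cdkn2a in each library, with replicate numbers as symbols and group means as lines (shCTR grey, n = 4; shCBX8 red, n = 3). Cbx8 and Phc1 sat at 5.46 CPM or below in the shCBX8 libraries and at 10.2 CPM or above in the shCTR libraries, while Suz12 was higher in all 3 shCBX8 libraries.

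A second PRC1 subunit fell as far as the target itself. Phc1, a Polyhomeotic protein that polymerises PRC1, read 11.8, 13.1, 12.2 and 13.9 CPM in control and 5.13, 5.05 and 5.46 CPM with the Cbx8 hairpin (log2 fold change -1.29, SE 0.16, adjusted p = 0.00156). Of the 14 canonical PRC1 subunits tested, 5 fell (Cbx8, Phc1, Cbx6, Phc3 and Bmi1) and none rose, with a median log2 fold change of -0.41. The 5 include the target of the hairpin, and with it 35.7% of the list passed, against 32.9% of all genes. The falls numbered 2 without shCBX8 1 or without shCBX8 6 and 3 with library size as the only scaling. Over all genes tested 15.9% fell, 17.0% rose and the median was -0.01. Without the target and Phc1, the falls were small for Phc3 (-0.58, SE 0.15, adjusted p = 0.0209) and Bmi1 (-0.34, SE 0.11, adjusted p = 0.0375). The catalytic subunits, named after their values were seen, did not pass, with Ring1 at -0.03 (adjusted p = 0.898) and Rnf2 at -0.10 (adjusted p = 0.720).

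Variant PRC1, which lacks a CBX subunit, changed in both directions. Pcgf6, the Polycomb ring finger protein of an E2F6 and MGA complex, rose by 0.95 (SE 0.17, adjusted p = 0.00519), and Yaf2 by 0.70 (SE 0.15, adjusted p = 0.00959). Bcor, a corepressor of the PCGF1 complex, fell by 0.68 (SE 0.14, adjusted p = 0.00742) and Kdm2b, its CpG-binding demethylase, fell by 0.80 (SE 0.19, adjusted p = 0.0147). Of 15 variant subunits, 3 rose and 4 fell, against 1 fall without shCBX8 1 or 6 and 1 rise without shCTR 1 and 2. In PRC2, Suz12, a core subunit needed for its methyltransferase activity, rose from 64.6, 53.8, 78.5 and 55.1 CPM to 139, 126 and 136 CPM (1.08, SE 0.17, adjusted p = 0.00315). Its partners Ezh2 (0.15, adjusted p = 0.443) and Eed (0.08, adjusted p = 0.618), also named after their values were seen, did not pass. The accessory subunit Mtf2 rose by 0.52 (SE 0.12, adjusted p = 0.0116), and Jarid2 fell by 0.63 (SE 0.18, adjusted p = 0.0288). Of 12 PRC2 genes tested 2 rose and 1 fell (25.0% passed, below the 32.9% of all genes). Men1, the menin subunit of MLL methyltransferases, which oppose Polycomb, fell from 42.6 ± 3.94 CPM over the 4 controls to 15.7 ± 4.85 CPM over the 3 shCBX8 libraries (-1.44, SE 0.20, adjusted p = 0.00218). Among 11 tested genes of MLL-type methylases and H3K27 demethylases 2 fell and none rose (18.2% passed, also below that share). Of the Polycomb genes named as called, Cbx8, Phc1, Suz12, Pcgf6, Bcor and Men1 passed with each library left out. Calls ended without shCBX8 1 for Cbx6, Phc3, Bmi1, Mtf2, Jarid2 and Kdm2b, without shCBX8 6 for the same genes other than Mtf2, and without shCTR 1 and 2 for Phc3, Bmi1, Mtf2, Jarid2 and Yaf2 (adjusted p = 0.0525 to 0.165 over these 3 settings). Bmi1 and Jarid2 also lost their calls without shCBX8 2, shCTR 1 or shCTR 5, Bmi1 without shCTR 2 and Jarid2 without shCTR 6 (adjusted p = 0.0504 to 0.0961). With library size as the only scaling the calls of Phc3, Bmi1 and Jarid2 ended (0.0582, 0.327 and 0.139), without a filter on low counts those of Bmi1 and Jarid2 (0.172 and 0.0828), and with unstranded counts that of Bmi1 (0.0727).

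The response was broad. In all 5478 genes passed (32.9%), of which 2827 were higher and 2651 lower in shCBX8, and 3055 changed by more than 2-fold. Falls outnumbered rises among the largest changes, with 91 falls and 52 rises beyond 16-fold. The groups did not overlap for 42.4% of all genes tested. The share that passed was 17.9% among genes with a mean under 0.5 CPM over the 7 libraries and 37.0% among those at 20 to 100 CPM. It ran from 30% on chromosome 17 to 38.0% on chromosome 14 among the placed genes. Protein-coding genes passed in 5047 of 14760 cases and small nucleolar RNAs in 12 of 119. Without shCBX8 1 the count of genes was 2261, without shCBX8 6 it was 2279, and without shCTR 1 and 2 it was 2409. With library size as the only scaling, 67.2% rather than 51.6% of the called genes were higher, and the median of all genes moved to 0.17.

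**Figure D2:**
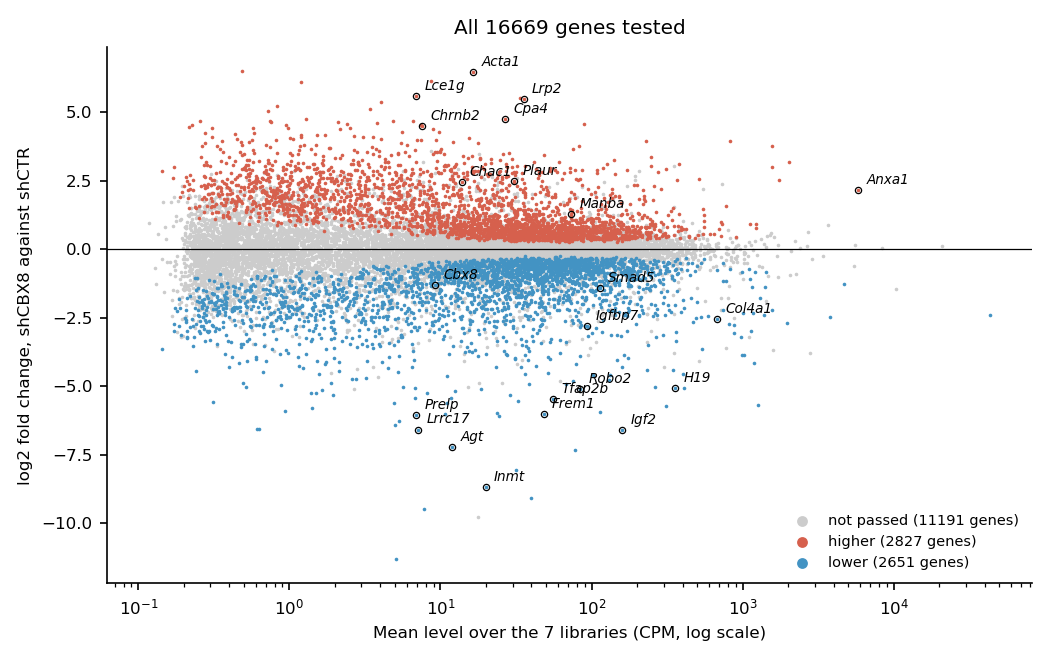
Log2 fold change of shCBX8 against shCTR (vertical axis) by the mean level over the 7 libraries (CPM, log axis) for the 16669 genes tested, with genes that passed in red (2827 higher) or blue (2651 lower) and the rest in grey. Falls reach further from 0 than rises, as for Inmt at -8.69 and Acta1 at 6.47.

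Among protein-coding genes at 20 CPM or more on average, Manba had the smallest p. Manba, the lysosomal beta-mannosidase, read 43.8, 47.4, 44.4 and 45.4 CPM in control and 103, 120 and 106 CPM in shCBX8 (log2 fold change 1.28, SE 0.09, adjusted p = 0.000743). Both groups of Manba were tight and far from overlapping. The small Maf factor gene Maff rose from 18.3 ± 3.24 to 74.3 ± 14.6 CPM (2.02, SE 0.17, adjusted p = 0.000751), and the lysosomal sialidase gene Neu1 from 33.8 ± 5.27 to 120 ± 17.5 CPM (1.83, SE 0.16, adjusted p = 0.000751). Ormdl1, a regulator of sphingolipid synthesis, rose by 2.19 (SE 0.19), Mrgbp, a subunit of the NuA4 histone acetyltransferase, by 1.16 (SE 0.10), and the stress-induced survival gene Ier3 by 1.94 (SE 0.19), with adjusted p = 0.000751 to 0.00125. Prdx6, Nt5c2, Tbc1d1 and Trappc6a completed the first 10, with log2 fold changes of 1.29 to 1.90.

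Smad5, which carries BMP signals to the nucleus, had the smallest p among the falls at that level. It read 158, 137, 160 and 165 CPM in control and 56.9, 62.8 and 54.6 CPM in shCBX8 (-1.42, SE 0.11, adjusted p = 0.000751). Robo2, a receptor for the axon guidance protein Slit, fell from 234, 125, 147 and 68.9 CPM to 3.71, 4.12 and 4.64 CPM (-5.11, SE 0.41, adjusted p = 0.000751). Here the 4 controls spread widely, while the 3 shCBX8 libraries sat close together. The arginine transporter gene Slc7a2 changed at -4.27 (SE 0.36), the heparan sulfate proteoglycan gene Gpc6 at -1.97 (SE 0.16), the integrin ligand gene Edil3 at -2.27 (SE 0.20) and the MYC antagonist gene Mxd4 at -1.72 (SE 0.15), with adjusted p = 0.000751 to 0.000799. Leprot and Kctd20 completed the falls together with Col4a1 and Col4a2. These 20 genes passed with each library left out. Against the shCBX7 libraries the log2 fold change of Manba was 1.05 (adjusted p = 0.00157) and that of Smad5 -1.30 (adjusted p = 0.00133).

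The largest rises were those of Acta1, the skeletal muscle actin, Edn2, Lce1g, Mybpc2, Lrp2, Cpa4, Etnppl, Ccl20, Bex1, Chrnb2, Xirp2 and Kng1. Lce1g, a late cornified envelope gene of skin, went from 0.198, 0.251, 0.392 and 0.432 CPM to 16.3, 21.7 and 8.92 CPM (5.58, SE 0.63, adjusted p = 0.00152). Etnppl, a phospholyase of phosphoethanolamine, rose by 4.68 (SE 0.81, adjusted p = 0.00457), and Kng1, kininogen, by 4.29 (SE 0.50, adjusted p = 0.00156). Xirp2, an actin-binding protein of striated muscle, read 1.15, 1.15, 1.03 and 0.403 CPM in control and 14.6, 32.7 and 11 CPM in shCBX8 (4.39, SE 0.63, adjusted p = 0.00250). Its highest value was in shCBX8 2, whereas Acta1 (35.5, 17.2 and 60.5 CPM), Etnppl (15.9, 5.32 and 22.4 CPM) and Kng1 (23.2, 10.2 and 30.3 CPM) had their lowest shCBX8 value there. Cpa4, Lrp2, Mybpc2, Bex1 and Chrnb2 had log2 fold changes of 4.49 to 5.51. A single gene, Ighm, the constant region of the IgM heavy chain, was under 0.1 CPM in every shCTR library and at 1 CPM or more in every shCBX8 library, at 2.37, 2.92 and 2.99 CPM (6.11, SE 0.69, adjusted p = 0.00146). No gene showed the opposite pattern.

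The largest falls were those of Kera, Fmod, Inmt, Aspn, Agt, Igf2, Lrrc17, Eln, Lpl, Prelp, Frem1 and Rtl3. Inmt, an indolethylamine methyltransferase, stood at 54.6, 58.9, 7.83 and 17.8 CPM in control and at 0.0629, 0.180 and 0.0215 CPM in shCBX8 (-8.69, SE 1.74, adjusted p = 0.00746). Prelp, a leucine-rich proteoglycan that anchors basement membranes, read 11.4, 19.4, 8.65 and 8.29 CPM in control and 0.0629, 0.361 and 0.129 CPM in shCBX8 (-6.06, SE 0.78, adjusted p = 0.00181). Frem1, a basement membrane protein, fell from 71.5, 205, 20.9 and 36.2 CPM to 0.587, 2.89 and 0.473 CPM (-6.02, SE 1.12, adjusted p = 0.00570). None of these ranges overlapped, although the controls differed widely among themselves for Inmt and Frem1. Agt, angiotensinogen, and Lrrc17 had their lowest control value in shCTR 6, at 2.65 and 1.18 CPM, still above the highest shCBX8 values of 0.210 and 0.129 CPM. Igf2, Rtl3, Agt, Lrrc17, Prelp, Frem1 and Inmt passed with each library left out. Kera, Fmod, Aspn, Eln and Lpl, which belong to the same 12, and Edn2 and Ccl20 among the rises did not. Their calls ended without shCBX8 1 for Ccl20, Kera, Fmod, Aspn, Eln and Lpl, without shCBX8 6 for Kera, Aspn, Eln and Lpl, without shCBX8 2 for Kera, Eln and Lpl, without shCTR 1 or 2 for Kera and Eln, and without both shCTR 1 and 2 for all but Fmod (adjusted p = 0.0502 to 0.227). Kera, Eln, Lpl and Fmod were far higher in shCTR 2, at 30.1, 31.6, 158 and 48.5 CPM, than in the other controls.

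Markers of the culture moved together with these genes. The summed level of 22 fibroblast markers was 15450, 41380, 9873 and 8256 CPM in shCTR, against 523, 4243 and 399 CPM in shCBX8, so that shCBX8 2 lay between shCTR and the other shCBX8 libraries. The sum of 14 horizontal basal cell markers was 1168, 647, 1533 and 2459 CPM against 5729, 3464 and 7436 CPM. Among fibroblast markers 9 of 22 fell and none rose, and among basal cell markers 5 of 14 rose and 1 fell. The fibroblast count was 18 without shCBX8 2, 5 without shCTR 2 or 5, and 2 without shCBX8 1, without shCBX8 6 or without shCTR 1 and 2. The basal cell count was 8 without shCTR 6 and 0 to 3 without shCBX8 1, shCBX8 6, shCTR 1, shCTR 2, shCTR 5 or the pair shCTR 1 and 2. In bulk RNA, fewer cells of a type and less RNA per cell cannot be told apart. Krt5 and Krt14, keratins of basal cells, ranged from 8.37 to 336 and from 40.8 to 441 CPM across the controls, against 220 to 333 and 490 to 648 CPM in shCBX8, and neither passed (adjusted p = 0.369 and 0.152). Col1a2, a fibroblast collagen, stood at -3.70 (SE 1.28, adjusted p = 0.0511). Mature olfactory neurons were close to absent by their marker Omp, which was at 0.605 CPM or below in each of the 7 libraries, and Cyp2g1 of sustentacular cells at 1.94 CPM or below. The whole list of sustentacular markers was higher in sum, at 1408, 506, 1256 and 1951 CPM in shCTR against 9051, 3991 and 10820 CPM in shCBX8. In shCBX8 most of it came from Krt8 and Krt18, keratins of many simple epithelia and the 2 of its 10 tested members that rose. Markers of Bowman glands summed to 139.6, 39.5, 157 and 278 CPM against 729, 375 and 953 CPM, with 1 rise among 7 tested, and those of globose basal cells to 159.5, 97.7, 147 and 159.6 CPM against 273, 175 and 342 CPM, with 4 rises and 1 fall among 8. Without any library but shCBX8 2 or shCTR 6, rises numbered 0 or 1 in each of these 3 lists. Markers of smooth muscle and pericytes, Acta2 among them, had 1 rise and 3 falls among 12 tested. They summed to 1914, 965.5, 716 and 663 CPM in shCTR against 5594, 1797 and 3665 CPM in shCBX8, so that the groups overlapped. The part of all these markers in the other results was not tested. Vim (-0.92, adjusted p = 0.0553), Epcam (2.30, adjusted p = 0.0632), Cdh1 (2.67, adjusted p = 0.0647), Foxj1 (2.67, adjusted p = 0.0559), Sox10 (2.01, adjusted p = 0.0527), Acta2 (-0.92, adjusted p = 0.448), Thy1 (-0.66, adjusted p = 0.739), Pecam1 (0.50, adjusted p = 0.461) and Ptprc (0.14, adjusted p = 0.914) did not pass.

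Many genes of junctions between epithelial cells rose. Of 28 junction genes, 16 rose and none fell, with a median log2 fold change of 2.40, and the groups did not overlap for 23. Over all genes tested 17.0% rose, and the groups did not overlap for 42.4%. Cldn1, a tight junction claudin, read 77.1, 29.4, 89.3 and 85.5 CPM in control and 416, 241 and 404 CPM in shCBX8 (2.33, SE 0.49, adjusted p = 0.00931). Marveld2, tricellulin, rose by 2.90 (SE 0.71, adjusted p = 0.0158), the plakophilin gene Pkp2 of desmosomes by 2.46 (SE 0.61, adjusted p = 0.0164) and Tjp3, a tight junction scaffold, by 3.15 (SE 0.82, adjusted p = 0.0191). In all of these shCTR 2 was lowest and shCBX8 2 was the lowest of its group. The simple keratins Krt8 and Krt18 rose by 3.00 (SE 0.97, adjusted p = 0.0413) and 3.20 (SE 1.02, adjusted p = 0.0387), and Krt17, a keratin of basal and injured epithelium, by 3.77 (SE 1.04, adjusted p = 0.0238). Krt17 read 177, 36.0, 204 and 566 CPM in control and 3313, 1709 and 5019 CPM in shCBX8. Among the 17 keratins tested 5 rose and none fell, against 8 rises without shCTR 6 and 1 or 2 without any other library but shCBX8 2. The epithelial regulators Grhl2 and Trp63 rose by 2.81 (SE 0.93, adjusted p = 0.0446) and 1.82 (SE 0.41, adjusted p = 0.0116). Of 17 epithelial transcription factor genes tested 5 rose, 1 fell and 11 did not pass (35.3% passed, near the 32.9% of all genes). The rises numbered 0 to 2 with any library but shCBX8 2 left out.

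These epithelial calls depended on single libraries. Without shCBX8 1 or shCBX8 6 the number of junction genes that rose was 1, without shCTR 1 and 2 it was 0, and without shCTR 1 or shCTR 5 it was 5, whereas without shCTR 6 it was 22. Cldn1 kept its call with any 1 library left out and lost it without shCTR 1 and 2 (adjusted p = 0.0505). The calls of Marveld2, Pkp2, Tjp3, Krt8, Krt18, Krt17 and Grhl2 ended without shCBX8 1 (adjusted p = 0.0508 to 0.105), the same genes and Trp63 without shCBX8 6 (0.0511 to 0.128), and all 9 genes without shCTR 1 and 2 (0.0505 to 0.185). Krt8, Krt18 and Grhl2 lost theirs as well without shCTR 1, 2 or 5, Krt17 without shCTR 1 or 5 and Grhl2 without shCTR 6 (0.0526 to 0.0971). A single epithelial regulator fell. Tfap2b, an AP-2 factor also used by neural crest, went from 194, 20.6, 79.3 and 87.3 CPM to 3.37, 1.56 and 1.42 CPM (-5.49, SE 0.81, adjusted p = 0.00278), and it passed with each library left out.

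Mesenchymal regulators fell. Of 14 genes of epithelial-mesenchymal transition and mesenchymal adhesion, 8 fell and none rose, with a median of -1.86. Tcf4, an E protein partner of Twist factors, read 533, 447, 463 and 528 CPM in control and 88.3, 155 and 77.6 CPM in shCBX8 (-2.21, SE 0.26, adjusted p = 0.00156). Snai2, the repressor Slug, read 24.2, 17.7, 24.1 and 28.4 CPM in control and 3.73, 11.1 and 3.14 CPM in shCBX8 (-1.98, SE 0.43, adjusted p = 0.00996). For both, the groups stood apart and shCBX8 2 kept the most transcript of the 3. Prrx2, a homeobox gene of connective tissue, fell by 2.09 (SE 0.37, adjusted p = 0.00497), the mesenchymal cadherin gene Cdh11 fell by 3.22 (SE 0.75, adjusted p = 0.0129) and Zeb2 fell by 1.10 (SE 0.28, adjusted p = 0.0173). The count of falls was 3 without shCBX8 1, 4 without shCBX8 6 or without shCTR 1 and 2, and 5 without shCTR 1 or 2 alone. The call of Cdh11 ended without shCBX8 1 (adjusted p = 0.0541) or shCTR 1 and 2 (0.0635) and that of Zeb2 without shCBX8 1 (0.0743) or 6 (0.0582), while Tcf4, Prrx2 and Snai2 passed in each of these.

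Of 43 collagen genes tested, 16 fell and 6 rose, with a median of -1.73. The falls numbered 6 without shCBX8 1 and 7 without shCBX8 6 or without shCTR 1 and 2, and the rises 2 or 3 in those settings and without shCTR 5. Col4a1 and Col4a2, the head-to-head pair that encodes the common basement membrane collagen, fell together, Col4a1 from 768, 1291, 1031 and 1136 CPM to 177, 203 and 157 CPM (-2.56, SE 0.21, adjusted p = 0.000751) and Col4a2 from 346, 603, 410 and 505 CPM to 91.9, 99.0 and 74.1 CPM (-2.40, SE 0.21, adjusted p = 0.000751). In both genes shCBX8 2 was the highest of the 3 and far below the lowest control. The alternative pair Col4a3 and Col4a4, which was looked at after the values were seen, rose, Col4a3 by 2.87 (SE 0.84, adjusted p = 0.0291) and Col4a4 by 2.30 (SE 0.63, adjusted p = 0.0231). Those 2 rises ended without shCBX8 1, shCBX8 6, shCTR 1, shCTR 5 or shCTR 1 and 2 (adjusted p = 0.0578 to 0.134), that of Col4a4 also without shCTR 2 (0.0509), whereas Col4a1 and Col4a2 passed throughout. Col11a1, a cartilage and fibroblast collagen, read 233, 446, 147 and 65.4 CPM in control and 5.68, 12.2 and 6.41 CPM in shCBX8 (-4.79, SE 0.77, adjusted p = 0.00366). Col8a2 changed at -4.82 (SE 0.87, adjusted p = 0.00535) and Col5a2 at -3.87 (SE 0.71, adjusted p = 0.00563), both with each library left out. Col20a1, a minor collagen, rose from 0.978 ± 0.319 to 10.9 ± 3.66 CPM (3.47, SE 0.45, adjusted p = 0.00195).

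Small leucine-rich proteoglycans, which organise collagen fibrils, had 6 falls and 1 rise among 12, with a median of -4.45, and 1 to 3 falls without shCBX8 1, without shCBX8 6 or without shCTR 1 and 2. Of 22 elastic fibre genes 10 fell and none rose, with Fbn2, a microfibril protein, at 206, 452, 131 and 109 CPM in control and 2.81, 21.4 and 3.53 CPM in shCBX8 (-4.61, SE 0.92, adjusted p = 0.00753). The falls of elastic fibre genes numbered 1 without shCBX8 1 or 6, 3 without shCTR 1 and 2, and 5 or 6 without shCTR 1, 2 or 5. Postn, periostin, fell from 2816, 4694, 1145 and 115 CPM to 57.9, 32.0 and 36.4 CPM (-5.70, SE 1.14, adjusted p = 0.00754), with a range of controls that reached from near the shCBX8 level to far above it. Among the integrins Itga7, a laminin receptor of muscle, rose from 20 ± 3.24 to 141 ± 53.1 CPM (2.81, SE 0.29, adjusted p = 0.00125), while Itga8 fell by 2.89 (SE 0.51, adjusted p = 0.00476) and Itga9 fell by 1.60 (SE 0.23, adjusted p = 0.00267). In all, 2 of 25 integrin genes rose and 7 fell (36.0% passed, near the 32.9% of all genes). The falls numbered 2 to 4 without shCBX8 1, shCBX8 6, shCTR 2 or the pair shCTR 1 and 2.

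Among matrix proteases and their inhibitors, Plaur, the urokinase receptor, read 6.81, 4.96, 12.4 and 16.8 CPM in control and 61.8, 63.6 and 48.1 CPM in shCBX8 (2.49, SE 0.49, adjusted p = 0.00709). Serpine2, an inhibitor of serine proteases, changed the other way, from 1114 ± 215 to 242 ± 47.6 CPM (-2.20, SE 0.27, adjusted p = 0.00156). The ADAMTS proteases Adamts9 (-3.60, SE 0.49, adjusted p = 0.00218), Adamts12 (-2.43, SE 0.37, adjusted p = 0.00309) and Adamts2 (-4.20, SE 0.78, adjusted p = 0.00570) fell. Mmp10, stromelysin 2, named after its values were seen, rose by 3.25 (SE 0.85, adjusted p = 0.0198), with 592 CPM in shCBX8 2 against 154 and 120 CPM in shCBX8 1 and 6, and lost its call without shCBX8 2, shCTR 1 or shCTR 1 and 2 (adjusted p = 0.0530 to 0.121). In all, 3 of 28 protease genes rose and 7 fell (35.7% passed, near the 32.9% of all genes). The falls numbered 16 without shCBX8 2 and 4 without shCBX8 1, without shCBX8 6 or without shCTR 1 and 2.

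**Figure D3:**
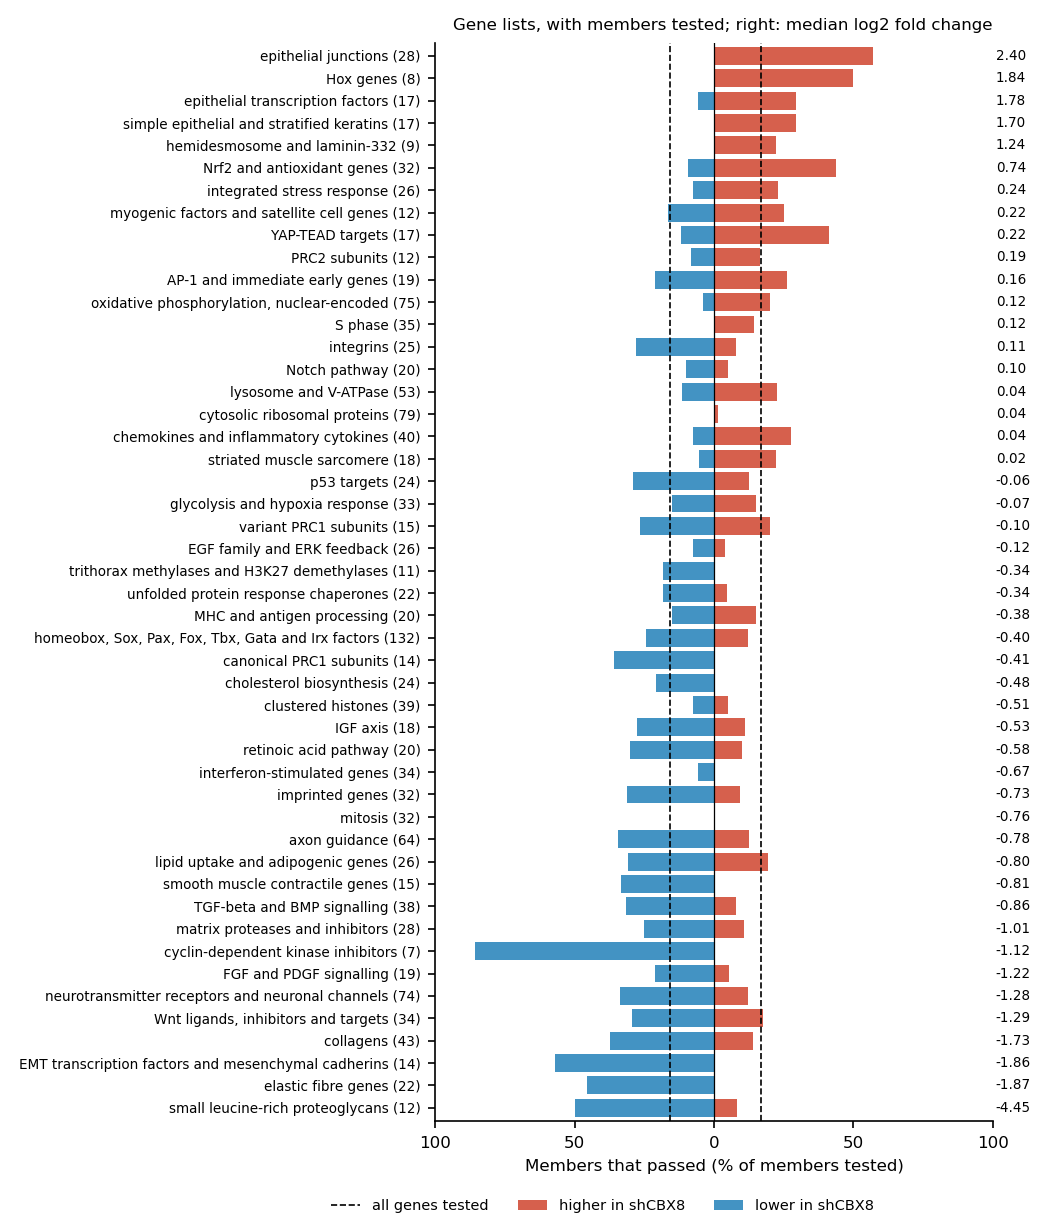
Share of tested members that passed in each of 48 gene lists, higher in shCBX8 to the right (red) and lower to the left (blue), in % of the members tested (number in brackets), with dashed lines at the shares over all genes (17.0% and 15.9%). The right-hand column gives the median log2 fold change, from 2.40 for epithelial junctions to -4.45 for small leucine-rich proteoglycans.

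Developmental transcription factors moved in both directions, with more falls. Of 132 homeobox, Sox, Pax, Fox, T-box, Gata and Iroquois genes tested out of 202, 32 fell and 16 rose, with a median of -0.40. The share that passed was 36.4%, near the 32.9% of all genes tested. Over all genes 15.9% fell and 17.0% rose. The falls numbered 15 without shCBX8 1 or 6 and 19 without shCTR 1 and 2, and the rises 3 to 10 in those settings and without shCTR 1, 2 or 5. The Iroquois genes Irx1 and Irx2, which are neighbours in the genome, both fell. Irx1 read 43.2, 25.8, 26.5 and 16.5 CPM in control and 1.76, 3.46 and 1.35 CPM in shCBX8 (-3.68, SE 0.42, adjusted p = 0.00153), and Irx2 14.2, 11.8, 13.7 and 15.0 CPM against 2.66, 5.38 and 3.01 CPM (-1.90, SE 0.26, adjusted p = 0.00231). Foxc1, a forkhead factor of cranial mesenchyme, fell by 1.77 (SE 0.19, adjusted p = 0.00125), and Tbx15 fell by 3.39 (SE 0.54, adjusted p = 0.00351). The craniofacial homeobox gene Alx4 had almost equal controls, 54.1, 56.0, 55.4 and 56.0 CPM, and 22.1, 34.6 and 19.4 CPM in shCBX8 (-1.13, SE 0.18, adjusted p = 0.00370). Shox2, chosen like Alx4, Alx1 and Pax9 after the values were seen, changed at -2.66 (SE 0.53, adjusted p = 0.00739), and Meox2, a mesoderm homeobox gene at 0.990 to 4.21 CPM in control, at -5.25 (SE 0.74, adjusted p = 0.00249). These 7 genes passed with each library left out. Alx1 (-2.58, SE 0.55, adjusted p = 0.00956) and Pax9 (-3.39, SE 0.86, adjusted p = 0.0178) fell with them in the full set.

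Rises among the factors included those of Meis3, Pax6 and Sox2. Meis3, a TALE homeobox gene, rose from 13.8 ± 1.89 to 26.7 ± 3.11 CPM (0.95, SE 0.15, adjusted p = 0.00321) and passed with each library left out. Pax6 and Sox2, which olfactory basal and sustentacular cells express, rose by 2.83 (SE 0.78, adjusted p = 0.0235) and 2.55 (SE 0.85, adjusted p = 0.0458). Otx2, a head homeobox gene, and Sox11, a gene of immature neurons, both taken after their values were seen, rose by 3.10 (SE 0.95, adjusted p = 0.0346) and 2.0 (SE 0.38, adjusted p = 0.00648). Hes6, a transcription factor of neuronal progenitors, rose from 23, 18.3, 21.8 and 21.4 CPM to 58.1, 36.0 and 75.6 CPM (1.42, SE 0.22, adjusted p = 0.00333). Pax6, Sox2 and Otx2 lost their calls without shCBX8 1, shCBX8 6, shCTR 1, shCTR 2 or shCTR 5 (adjusted p = 0.0514 to 0.135), Otx2 without shCTR 6 (0.0579), Pax9 without shCBX8 1 or 6 (0.0628 to 0.0685), and these 4 with Sox11 and Alx1 without shCTR 1 and 2 (0.0512 to 0.201).

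The Hox clusters, a classical readout of Polycomb repression, stayed at low levels. Of 39 Hox genes 8 could be tested, and 4 of those rose, none fell, with a median of 1.84. DESeq2 gave 4 rises and 3 falls, no low-count filter 4 and 2, and unstranded counts 1 and 2. Hoxb4 read 0.238, 0.301, 0 and 0 CPM in control and 1.13, 0.872 and 0.839 CPM in shCBX8 (2.93, SE 0.87, adjusted p = 0.0302). Hoxc6 (2.5, SE 0.64, adjusted p = 0.0179), Hoxb9 (2.03, SE 0.57, adjusted p = 0.0258) and Hoxc4 (2.79, SE 0.85, adjusted p = 0.0340) reached 0.335 to 0.902 CPM in shCBX8. For each of the 4 the groups did not overlap, yet all 4 calls ended without shCBX8 1 or 6 (adjusted p = 0.0541 to 0.0963), all but Hoxc6 without shCTR 5 (0.0531 to 0.0829), Hoxb9 without shCTR 6 (0.0510) and Hoxc4 without shCBX8 2 (0.0725). With unstranded counts Hoxc6, Hoxb9 and Hoxc4 did not pass, at 1.17, 1.27 and 1.09.

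**Figure D4:**
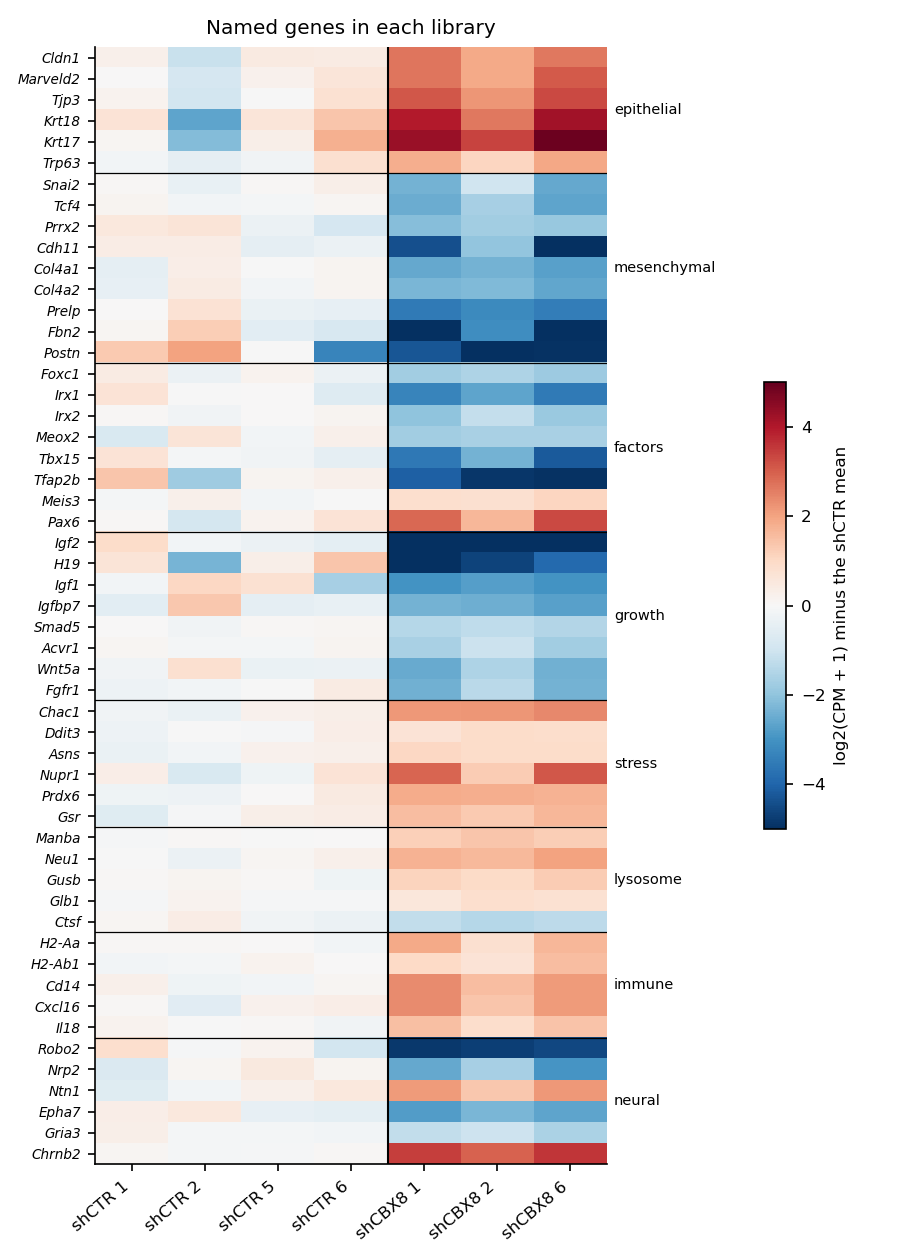
Log2(CPM + 1) of named genes in each of the 7 libraries relative to the shCTR mean (red higher, blue lower, colours end at 5 to each side). The 3 shCBX8 libraries share the direction in each row, shCBX8 2 is paler than the other 2 in many epithelial and mesenchymal genes, and shCTR 2 and 6 depart from the other controls in Krt18, Krt17, Postn and H19.

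Igf2 and H19, neighbours that share an imprinting control region and are expressed from opposite parental alleles, both fell. Igf2, a fetal growth factor, read 478, 235, 208 and 182 CPM in control and 1.22, 5.83 and 1.57 CPM in shCBX8 (-6.60, SE 0.78, adjusted p = 0.00156). H19, a noncoding RNA, read 676, 87.4, 541 and 1131 CPM in control and 8.51, 16.9 and 28.6 CPM in shCBX8 (-5.08, SE 0.88, adjusted p = 0.00463). For both genes every shCBX8 value lay under every control value, and they passed with each library left out. Of 32 imprinted genes 10 fell and 3 rose, with a median of -0.73, against 2 falls without shCBX8 1 or 6, 3 without shCTR 1 and 2, and 6 without shCTR 1. Slc22a18, a transporter gene of another imprinted cluster, rose from 4.72 ± 0.551 to 14.3 ± 3.54 CPM (1.60, SE 0.29, adjusted p = 0.00542), and Grb10, an inhibitor of insulin receptor signalling, fell by 1.02 (SE 0.24, adjusted p = 0.0126), a call that ended without shCBX8 1, shCBX8 6 or shCTR 1 and 2 (adjusted p = 0.0516 to 0.0625). In the IGF axis, Igf1 fell from 8.2, 19.9, 16.1 and 2.19 CPM to 0.272, 0.481 and 0.280 CPM (-5.08, SE 0.93, adjusted p = 0.00543) and the binding protein gene Igfbp7 from 86.2, 320, 89.3 and 95.4 CPM to 23, 22.3 and 18.1 CPM (-2.80, SE 0.49, adjusted p = 0.00476).

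Of 38 genes of BMP and TGF-beta signalling 12 fell and 3 rose, with a median of -0.86, against 4 or 5 falls without shCBX8 1, without shCBX8 6 or without shCTR 1 and 2, and 0 or 1 rise there and without shCTR 1. Besides Smad5, the type I receptor genes Acvr1 and Bmpr1a fell, Acvr1 from 39.1, 34.0, 33.7 and 39.8 CPM to 11.1, 16.9 and 10.3 CPM (-1.52, SE 0.19, adjusted p = 0.00169) and Bmpr1a fell by 0.89 (SE 0.16, adjusted p = 0.00543). Tgfbi, a secreted protein named for its induction by TGF-beta, went from 185, 84.6, 272 and 240 CPM to 0.461, 4.48 and 4.75 CPM (-5.92, SE 0.92, adjusted p = 0.00339), and Id3, a BMP target, changed at -2.83 (SE 0.61, adjusted p = 0.00987). Fst, follistatin, an inhibitor of activin, rose by 1.12 (SE 0.28, adjusted p = 0.0167). The call of Id3 ended without shCTR 1 and 2 (adjusted p = 0.0518), and that of Fst there (0.0563) and without shCBX8 1 (0.0646).

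Of 34 Wnt genes 10 fell and 6 rose, against 3 or 4 falls and 0 to 2 rises without shCBX8 1, without shCBX8 6 or without shCTR 1 and 2. Wnt5a, a noncanonical ligand, fell from 193 ± 84.3 to 42.0 ± 17.6 CPM (-2.20, SE 0.38, adjusted p = 0.00475), and Wnt16 from 25.6, 27.2, 17.1 and 4.64 CPM to 0.377, 1.5 and 0.408 CPM (-4.63, SE 0.76, adjusted p = 0.00390). Wif1, a secreted Wnt inhibitor, changed at -3.99 (SE 0.70, adjusted p = 0.00480) at control levels of 1.43 CPM or less, and Rnf43, which removes Wnt receptors, rose by 2.61 (SE 0.56, adjusted p = 0.00984). The receptor gene Fgfr1 fell from 243, 266, 287 and 390 CPM to 53.7, 114 and 55.3 CPM (-1.99, SE 0.30, adjusted p = 0.00277), in cultures that grew with its ligand FGF2. Fgfr3 (-2.86, SE 0.48, adjusted p = 0.00425) and Fgfrl1 (-1.42, SE 0.28, adjusted p = 0.00716) fell with it, and 4 of 19 FGF and PDGF genes fell and 1 rose (26.3% passed, below the 32.9% of all genes), with 7 falls without shCBX8 2. In the retinoic acid pathway Rxra, the common nuclear receptor partner, fell by 1.19 (SE 0.22, adjusted p = 0.00580), while Crabp2, which carries retinoic acid to the nucleus, rose by 1.76 (SE 0.36, adjusted p = 0.00845). The count for this pathway was 6 falls and 2 rises among 20 genes, with 2 or 3 falls without shCBX8 1, without shCBX8 6 or without shCTR 1 and 2. The synthesis gene Aldh1a2 had -3.85 (SE 0.88, adjusted p = 0.0119), a call that ended without shCBX8 1 (adjusted p = 0.0507), and that of Rnf43 ended without shCTR 1 and 2 (adjusted p = 0.0640).

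In the AP-1 and immediate early list 5 of 19 genes rose, 4 fell and 10 did not pass, with a median of 0.16. Atf3, a stress-induced AP-1 and CREB factor, rose from 5.31, 2.60, 6.51 and 10.3 CPM to 63.0, 46.3 and 75.0 CPM (3.31, SE 0.55, adjusted p = 0.00406) and passed beside Maff and Ier3. In this list no fall was left without shCBX8 1, without shCBX8 6 or without shCTR 1 and 2, 2 without shCTR 2, 5 or 6, and the rises then numbered 3 without shCTR 1 and 2. YAP-TEAD targets had 7 rises and 2 falls among 17 tested, with 4 rises without shCBX8 1, shCBX8 6, shCTR 1 or shCTR 5 and 2 without shCTR 1 and 2. Among them Gadd45b, a growth arrest and stress gene, read 29.5, 29.3, 21.0 and 20.8 CPM in control and 172, 77.1 and 200 CPM in shCBX8 (2.58, SE 0.35, adjusted p = 0.00218), and Nt5e, the ectonucleotidase CD73, 2.53, 2.25, 3.84 and 4.12 CPM against 15.7, 14.7 and 16.3 CPM (2.28, SE 0.32, adjusted p = 0.00234). Both were separated from control in each library. The value of shCBX8 2 was the lowest of the 3 for both genes, far below the others for Gadd45b and close to them for Nt5e.

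Of 20 genes of the MHC and antigen processing 3 rose and 3 fell (30% passed, against 32.9% of all genes), with a median of -0.38. The MHC class II genes H2-Aa and H2-Ab1, which present extracellular peptides, rose by 4.04 (SE 0.64, adjusted p = 0.00537) and 3.08 (SE 0.50, adjusted p = 0.00377). Their levels stayed at 0.320 CPM or below in control and at 3.23 CPM or below in shCBX8. The falls were those of Tap1 (-1.09, SE 0.36, adjusted p = 0.0415), Tap2 (-1.34, SE 0.38, adjusted p = 0.0264), which pump peptides for class I into the endoplasmic reticulum, and of H2-T23 (-1.67, SE 0.52, adjusted p = 0.0351). In these 3 genes shCBX8 2 stood nearer to control than the others. Tap1 read 136, 110, 162 and 92.6 CPM in control, 38.5 and 41.3 CPM in shCBX8 1 and 6, and 95.7 CPM in shCBX8 2. The calls ended without shCBX8 1, shCBX8 6 or shCTR 1 and 2 for all 3 genes, and for Tap1 and H2-T23 without shCTR 1, 2 or 5 and Tap2 without shCTR 2 (adjusted p = 0.0507 to 0.151). Interferon-stimulated genes showed the same split, with a summed level of 3283, 3212, 4324 and 2068 CPM in shCTR, 1109 and 915 CPM in shCBX8 1 and 6, and 3889 CPM in shCBX8 2, and 2 of 34 passed, both lower. Without shCBX8 2, 28 of these genes passed as lower and 11 of the antigen processing genes, where 3 did in the full set. Without shCBX8 1, shCBX8 6 or the pair shCTR 1 and 2 no gene of either list passed as lower, and 0 or 1 did without shCTR 1, 2 or 5. Among cytokines 11 of 40 rose and 3 fell, against 4 rises without shCBX8 1 or without shCTR 1 and 2, 6 without shCBX8 6 or shCTR 5, and 6 falls without shCBX8 2. Cxcl16, a membrane-bound chemokine, rose from 43.4, 27.8, 48.4 and 52.7 CPM to 220, 111 and 188 CPM (2.0, SE 0.37, adjusted p = 0.00558), and Il18, an inflammasome cytokine, by 1.37 (SE 0.28, adjusted p = 0.00781). Cd14, a coreceptor for lipopolysaccharide, read 36.5, 26.2, 27.4 and 32.4 CPM in control and 159, 91.2 and 137 CPM in shCBX8 (2.08, SE 0.29, adjusted p = 0.00233). The defining immune marker Ptprc was at 1.58 CPM or below in the 7 libraries, and of 12 immune cell markers tested 2 passed, Cd14 and Cd68 (1.69, SE 0.34, adjusted p = 0.00726).

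Cell cycle inhibitors were lower, including the classical Polycomb target. Of 7 cyclin-dependent kinase inhibitor genes 6 fell and none rose, with a median of -1.12. Cdkn2a, which encodes p16Ink4a and p19Arf, read 128, 90.2, 138 and 139 CPM in control and 58.1, 80.5 and 55.3 CPM in shCBX8 (-0.94, SE 0.21, adjusted p = 0.0109). Cdkn1a, the p53 target p21, changed at -0.76 (SE 0.20, adjusted p = 0.0184), Cdkn1b, p27, at -1.12 (SE 0.31, adjusted p = 0.0244) and the imprinted Cdkn1c, p57, at -2.09 (SE 0.69, adjusted p = 0.0447). The neighbour of Cdkn2a, Cdkn2b, at -0.12 (SE 0.28, adjusted p = 0.755), did not pass. Without shCBX8 1 or without shCBX8 6 none of the 6 calls held (adjusted p = 0.0557 to 0.133 for Cdkn2a, Cdkn1a, Cdkn1b and Cdkn1c). Without shCTR 1 and 2 those of Cdkn2a and Cdkn1a held (0.151 for Cdkn1b and 0.263 for Cdkn1c). The call of Cdkn1b ended without shCTR 1 (0.0528), and that of Cdkn1c without shCBX8 2, shCTR 1 or shCTR 2 (0.0667 to 0.0817). With library size as the only scaling, 4 members of the list passed as lower.

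Genes of S phase and mitosis did not follow the inhibitors in 1 direction. Of 35 S phase genes 5 rose and none fell (14.3% passed, below the 32.9% of all genes). The rises numbered 1 without shCBX8 1, shCBX8 6, shCTR 1 or the pair shCTR 1 and 2, and 3 without shCBX8 2 or shCTR 2. Rfc1, the large subunit of the clamp loader, rose from 78.4, 71.7, 80.7 and 73.0 CPM to 114, 99.2 and 115 CPM (0.53, SE 0.09, adjusted p = 0.00505) and Pcna by 0.52 (SE 0.13, adjusted p = 0.0195). Rfc1 passed with each library left out, while the call of Pcna ended without shCBX8 1, shCBX8 6, shCTR 1, shCTR 2 or the pair shCTR 1 and 2 (adjusted p = 0.0508 to 0.124). None of 32 mitosis genes passed in edgeR's test, where 7 were under an unadjusted p of 0.05, and 2 passed with DESeq2, but 12 passed as lower without shCBX8 2 and 7 without shCTR 2. Mki67, a marker of cycling cells, was at 72.9, 25.1, 48.6 and 37.2 CPM in control and 15.1, 26.9 and 4.13 CPM in shCBX8 (-1.58, SE 0.56, adjusted p = 0.0543). The p53 targets split, with 3 rises and 7 falls among 24, and 3 or 4 falls without shCBX8 1 or 6. Pmaip1, the apoptosis gene Noxa, rose from 145, 52.5, 204 and 257 CPM to 1152, 573 and 1210 CPM (2.57, SE 0.48, adjusted p = 0.00607), and Rrm2b by 1.08 (SE 0.17, adjusted p = 0.00333). The sestrin gene Sesn1 fell by 1.47 (SE 0.28, adjusted p = 0.00617), the death receptor gene Fas fell by 2.0 (SE 0.41, adjusted p = 0.00825) and Zmat3 fell by 0.83 (SE 0.17, adjusted p = 0.00911). These 5 genes passed with each library left out.

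In the list of the integrated stress response Chac1, Asns and Ddit3 rose to nearly the same level in the 3 shCBX8 libraries. Chac1, a glutathione-degrading enzyme of the integrated stress response, read 4.0, 3.41, 5.59 and 5.87 CPM in control and 24.5, 24.7 and 28.4 CPM in shCBX8 (2.45, SE 0.28, adjusted p = 0.00146). Asns, asparagine synthetase, went from 39.4, 44.4, 56.8 and 59.0 CPM to 102, 94.0 and 93.1 CPM (0.95, SE 0.16, adjusted p = 0.00427), and Ddit3, the stress factor CHOP, from 40.2 ± 7.21 to 71.6 ± 5.97 CPM (0.83, SE 0.14, adjusted p = 0.00419). Nupr1, a stress-inducible chromatin protein, rose by 2.53 (SE 0.48, adjusted p = 0.00638) and Slc7a3, an arginine transporter, by 1.11 (SE 0.24, adjusted p = 0.00970). With Phgdh, of serine synthesis, 6 of 26 genes of the list rose, 2 fell and 18 did not pass, with a median of 0.24, so that the share that passed (30.8%) was below the 32.9% of all genes. The count of rises was 6 with any shCTR library left out or without shCBX8 1 or 6, and 5 without shCTR 1 and 2, where the call of Phgdh ended (adjusted p = 0.0507). Pycr1, a proline synthesis gene of the same list named after its values were seen, fell by 1.5 (SE 0.32, adjusted p = 0.00990, and 0.0557 without shCTR 1 and 2).

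The promoters of these genes are shown because many genes of this response carry a composite element for ATF4 and C/EBP factors. RefSeq promoter windows (GRCm38.p6) were matched by symbol and chromosome for 12176 of the tested genes, and the 250 bases before the first listed start of each were searched on both strands. The letters TGATGNAA, a core of that element, were found in 2.12% of all these windows and in 6 of 24 windows of the stress list, those of Chac1, Asns, Nupr1, Pycr1, Fgf21 and Slc7a11, of which 3 genes rose, 1 fell and 2 did not pass. The stretches below, with the match in capitals as it reads on the gene's strand, lie at chr2:119351019-119351086 on the plus strand for Chac1, chr6:7693210-7693262 on the minus strand for Asns and chr7:126625543-126625610 on the minus strand for Nupr1. The match starts 193 bases before the start of Chac1, 23 before that of Asns and 110 before that of Nupr1. In Chac1 and Nupr1 it is the reverse complement.
Chac1: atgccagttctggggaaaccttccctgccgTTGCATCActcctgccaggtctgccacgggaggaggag
Asns: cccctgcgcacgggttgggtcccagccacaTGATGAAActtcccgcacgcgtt
Nupr1: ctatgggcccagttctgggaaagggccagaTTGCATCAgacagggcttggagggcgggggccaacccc
A match describes the letters and is not evidence of binding.

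Of 32 Nrf2 and antioxidant genes 14 rose and 3 fell, with a median of 0.74. Prdx6, a peroxiredoxin that repairs oxidised lipids, read 92.3, 90.8, 108 and 149 CPM in control and 392, 381 and 360 CPM in shCBX8 (1.78, SE 0.17, adjusted p = 0.00125). Gsr, glutathione reductase, rose by 1.51 (SE 0.27, adjusted p = 0.00534), Gpx4, which protects membranes from lipid peroxides, by 1.08 (SE 0.21, adjusted p = 0.00725) and Taldo1, of the pentose phosphate pathway, by 1.31 (SE 0.22, adjusted p = 0.00442). Gstm1, a glutathione transferase, went the other way, from 119, 126, 116 and 149 CPM to 23.3, 37.5 and 34.8 CPM (-2.0, SE 0.27, adjusted p = 0.00226). All 5 held with each library left out, but the count of rises was 7 without shCBX8 1 or 6, 6 without shCTR 1 and 2 and 9 without shCTR 1, 2 or 5. In the unfolded protein response Ero1l, a disulfide-forming oxidase, rose by 1.04 (SE 0.19, adjusted p = 0.00538) while Sel1l (-0.80, SE 0.16, adjusted p = 0.00722) and Creld2 (-0.76, SE 0.15, adjusted p = 0.00745) fell. Of 22 genes in this list 1 rose and 4 fell (22.7% passed, below the 32.9% of all genes). The falls numbered 7 without shCBX8 2 and 2 without shCBX8 1, shCBX8 6, shCTR 2, shCTR 5 or the pair shCTR 1 and 2.

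Of 53 lysosome and proton pump genes 12 rose and 6 fell (34.0% passed, near the 32.9% of all genes), with a median of 0.04. The hydrolase genes Manba and Neu1 led, followed by Gusb, beta-glucuronidase, which read 76.2, 81.0, 76.7 and 62.7 CPM in control and 160, 146 and 178 CPM in shCBX8 (1.12, SE 0.12, adjusted p = 0.00125). Glb1, beta-galactosidase, rose from 83.7 ± 7.03 to 140 ± 13.8 CPM (0.74, SE 0.13, adjusted p = 0.00447). Ctsf, a cathepsin, fell from 67.7, 81.3, 56.0 and 51.6 CPM to 26.6, 23.2 and 24.9 CPM (-1.36, SE 0.22, adjusted p = 0.00377) and Ids, iduronate sulfatase, fell by 1.23 (SE 0.17, adjusted p = 0.00223). Rises and falls were close in number without shCBX8 1 (6 and 5), without shCBX8 6 (7 and 5) and without shCTR 1 and 2 (4 and 4). Lysosomal promoters often carry an E-box for TFEB and its relatives, so the same windows were searched for its core CACGTG, which reads alike on both strands. It stood in 7.99% of all windows and in 11 of 40 of this list. Of those 11 genes 3 rose and 1 fell, so that both directions occurred, as in the 2 stretches shown to compare a gene that rose with one that fell. They lie at chr9:114401000-114401065 (Glb1) and chr19:4855056-4855121 (Ctsf), both on the plus strand, with the core 48 and 79 bases before the start.
Glb1: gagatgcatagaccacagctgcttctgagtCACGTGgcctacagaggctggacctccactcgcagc
Ctsf: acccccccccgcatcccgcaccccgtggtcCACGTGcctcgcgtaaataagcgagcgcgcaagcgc

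In the protease list, the AP-1 core TGANTCA, also the same on both strands, stood in 5 of 20 windows, those of Plaur, Mmp10, Serpinb2, Mmp13 and Mmp3, against 4.85% of all windows. It stood in 0 of 14 windows of the AP-1 and immediate early list. Plaur and Mmp10 rose and the remaining 3, named for their match alone, did not pass. The stretch of Plaur, at chr7:24462384-24462450 on the plus strand with the core 69 bases before the start, is shown for the gene whose rise held with each library left out, and that of Mmp10, at chr9:7502249-7502315 on the plus strand with the core 63 bases before the start, for the gene whose rise did not.
Plaur: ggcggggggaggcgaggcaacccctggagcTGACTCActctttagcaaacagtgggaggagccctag
Mmp10: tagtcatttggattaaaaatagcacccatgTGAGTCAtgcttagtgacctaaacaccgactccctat

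Genes of oxidative phosphorylation, glycolysis and cholesterol synthesis passed less often than all genes tested. Of 75 nuclear genes of oxidative phosphorylation 15 rose and 3 fell (24.0% passed, below the 32.9% of all genes), with a median of 0.12. Uqcrq, of complex III, rose by 0.73 (SE 0.13, adjusted p = 0.00483), Cycs, cytochrome c, by 0.86 (SE 0.16, adjusted p = 0.00543) and Ndufa4 by 0.69 (SE 0.13, adjusted p = 0.00662). This count depended on scaling and filter, with 32 rises under library size alone, 5 without a filter on low counts, 6 without shCBX8 1 or 6, 4 without shCTR 1 and 2, and 7 to 9 without shCTR 1, 2 or 5. Among 33 glycolysis genes 5 rose and 5 fell (30.3% passed), with 2 rises without any library but shCBX8 2 or shCTR 6 and 9 falls without shCBX8 2. Gapdh rose from 138 ± 11.8 to 246 ± 12.1 CPM (0.84, SE 0.12, adjusted p = 0.00250) and Pdk1, which closes the entry of pyruvate into the citric acid cycle, fell from 51.1, 48.0, 53.3 and 21.7 CPM to 17.4, 12.6 and 13.0 CPM (-1.60, SE 0.30, adjusted p = 0.00569). Srebf2, the master regulator of sterol synthesis, fell by 1.16 (SE 0.23, adjusted p = 0.00762), and 5 of 24 cholesterol synthesis genes fell and none rose (20.8% passed). The count of falls was 1 without shCBX8 1 or 6, 3 without shCTR 5, shCTR 6 or the pair shCTR 1 and 2, and 10 without shCBX8 2. In lipid handling Apoe rose from 33.0 ± 5.28 to 86.7 ± 33.0 CPM (1.40, SE 0.25, adjusted p = 0.00496), and Fabp5, a fatty acid binding protein, fell by 1.40 (SE 0.25, adjusted p = 0.00524). Of 79 cytosolic ribosomal protein genes 1 passed.

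Axon guidance genes fell more often than they rose, 22 against 8 of 64, with a median of -0.78. Next to Robo2, the ephrin receptor gene Epha7 fell from 90.2, 102, 53.7 and 50.9 CPM to 9.49, 13.6 and 10.5 CPM (-2.73, SE 0.32, adjusted p = 0.00156) and the semaphorin receptor gene Nrp2 from 144, 260, 339 and 263 CPM to 39.5, 74.7 and 30.6 CPM (-2.38, SE 0.39, adjusted p = 0.00371). Unc5c (-3.76, SE 0.62, adjusted p = 0.00389), a netrin receptor, fell while the ligand gene Ntn1 rose from 34.6, 48.7, 64.0 and 78.1 CPM to 236, 140 and 248 CPM (1.89, SE 0.30, adjusted p = 0.00353). Sema3d, a secreted semaphorin, changed at -3.48 (SE 0.62, adjusted p = 0.00497). These 6 genes held with each library left out, and the falls numbered 10 without shCBX8 1 and 12 without shCBX8 6 or without shCTR 1 and 2, and the rises 2 to 5 with any library but shCBX8 2 left out. Among 74 neurotransmitter receptor and channel genes 25 fell and 9 rose, with 12 falls after forward-strand counts were subtracted and 15 when genes averaging below 1 CPM were dropped. The AMPA receptor gene Gria3 fell from 143 ± 21.9 to 58.1 ± 10.8 CPM (-1.30, SE 0.18, adjusted p = 0.00218), Gria4 fell by 2.11 (SE 0.36, adjusted p = 0.00443) and the NMDA receptor gene Grin1 fell by 2.02 (SE 0.33, adjusted p = 0.00389), while the nicotinic receptor gene Chrnb2 rose from 0.871, 0.601, 0.676 and 0.777 CPM to 17.9, 12.3 and 19.6 CPM (4.49, SE 0.27, adjusted p = 0.000372), with the smallest adjusted p of the genes named here. The size of the Grin1 change was -1.29 with unstranded counts and -4.28 after forward-strand counts were subtracted. The count of falls was 7 without shCBX8 1, 8 without shCBX8 6, 5 without shCTR 1 and 2, and 13 to 15 without shCTR 1, 2 or 5, and that of rises 3 to 5 without shCBX8 1, shCBX8 6 or shCTR 1.

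Some genes of striated muscle rose. Of 35 sarcomere genes 18 could be tested, and 4 of them rose and 1 fell (27.8% passed, below the 32.9% of all genes), with a median of 0.02. Mylpf, a fast myosin light chain, rose by 2.33 (SE 0.36, adjusted p = 0.00315) and Tnnc1, cardiac troponin C, by 1.38 (SE 0.24, adjusted p = 0.00496), both at 3.59 CPM or below. Chrnd, the delta subunit of the muscle acetylcholine receptor, rose from 0.238 CPM or less to 1.26, 0.902 and 2.60 CPM (3.72, SE 0.70, adjusted p = 0.00606). Myod1 and Myog, the myogenic factors, were at 0.396 CPM or below in each library and could not be tested. Of the 12 genes tested in the list of myogenic factors and satellite cells, 3 rose and 2 fell, with a median of 0.22, and 1 rose without shCBX8 1, shCBX8 6, shCTR 1 or the pair shCTR 1 and 2. The MEF2 factors, which act with MYOD1 and myogenin, differed in direction, Mef2d rising by 0.64 (SE 0.19, adjusted p = 0.0299) while Mef2c fell from 32.4, 34.5, 18.2 and 16.3 CPM to 4.36, 5.08 and 6.26 CPM (-2.28, SE 0.32, adjusted p = 0.00242) and Mef2a fell by 1.75 (SE 0.35, adjusted p = 0.00728). The call of Mef2d ended without shCBX8 1, 2 or 6, shCTR 1, shCTR 5 or the pair shCTR 1 and 2 (adjusted p = 0.0599 to 0.107) and without a filter on low counts (0.0507).

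The noncoding RNAs Snhg3 and Gas5, hosts of small nucleolar RNAs, were among the 8 noncoding genes with the smallest p for a rise. Snhg3 read 9.22, 8.87, 9.89 and 9.50 CPM in control and 25.7, 20.1 and 22.4 CPM in shCBX8 (1.28, SE 0.15, adjusted p = 0.00153), Gas5 186, 189, 205 and 196 CPM against 368, 326 and 348 CPM (0.84, SE 0.12, adjusted p = 0.00226), and Snora78, a small nucleolar RNA itself, rose by 1.08 (SE 0.16, adjusted p = 0.00266). Controls were nearly equal in these genes. Dubr, a long noncoding RNA of muscle and brain, fell by 1.97 (SE 0.34, adjusted p = 0.00442), and Brip1os fell by 1.02 (SE 0.15, adjusted p = 0.00288), or changed by -1.88 after forward-strand counts were subtracted. Of the most abundant genes, Anxa1, annexin A1, a membrane-binding protein with anti-inflammatory roles, rose from 3181, 1527, 1826 and 2761 CPM to 13830, 6171 and 11350 CPM (2.17, SE 0.40, adjusted p = 0.00546). Spp1, osteopontin (-1.45, SE 0.71, adjusted p = 0.142), Malat1 (-0.61, SE 0.36, adjusted p = 0.214), Rn7sk (0.12, SE 0.29, adjusted p = 0.774) and Eef1a1 (0.17, SE 0.20, adjusted p = 0.544) did not pass.

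The shCBX8 libraries did not respond alike, and shCBX8 2 also had a forward-strand share within the control range (7.75%), whose part in what follows was not tested. Over the tested members of each gene list, the mean of log2(CPM + 1) relative to the shCTR mean was -3.96 and -4.39 for fibroblast markers in shCBX8 1 and 6 but -1.21 in shCBX8 2, and -2.18, -2.53 and -0.84 for the mesenchymal regulators in shCBX8 1, 6 and 2. Canonical PRC1 subunits, with the target Cbx8 among them, lay at -0.43, -0.46 and -0.40 in shCBX8 1, 2 and 6, and the integrated stress response at 0.23, 0.36 and 0.20. Both lists were about as far from control in shCBX8 2 as in the others. Interferon-stimulated genes lay at -1.66 and -1.82 in shCBX8 1 and 6 and at 0.55 in shCBX8 2. Gene by gene, shCBX8 2 was nearer to the control mean than the mean of shCBX8 1 and 6 for 4501 of the 5478 called genes (82.2%), a description of genes that all 3 libraries helped to call. Leaving out shCBX8 2 raised the number of called genes to 6193.

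**Figure D5:**
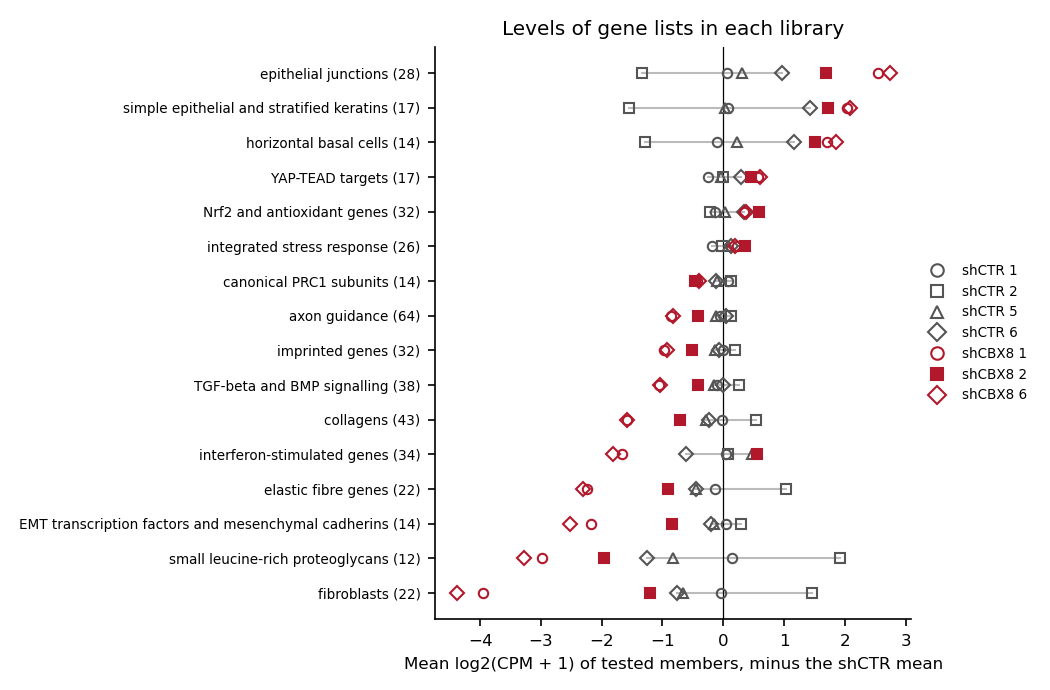
Mean log2(CPM + 1) of the tested members of 16 gene lists in each library, minus the shCTR mean (shCTR grey with its range as a line, shCBX8 red, shCBX8 2 filled). For fibroblast markers shCBX8 2 sits at -1.21, between the controls and the other shCBX8 libraries at -3.96 and -4.39. For canonical PRC1 subunits, which include the target Cbx8, all 3 sit between -0.46 and -0.40.

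The shCBX7 libraries, which carry a hairpin against another PRC1 paralog, were compared with the same shCBX8 libraries, so that both sets of values share them. In it 4762 of 16669 genes (28.6%) passed. Phc1 (-1.17, adjusted p = 0.00296), Suz12 (1.13, adjusted p = 0.00447), Igf2 (-5.01, adjusted p = 0.00349), H19 (-4.02, adjusted p = 0.0108), Chac1 (2.60, adjusted p = 0.00225), Tcf4 (-2.08, adjusted p = 0.00272), Irx1 (-3.03, adjusted p = 0.00298) and Cdkn2a (-1.08, adjusted p = 0.00954) differed between the 2 hairpins. For others the difference from shCBX7 did not pass, namely Phc3 (-0.12, adjusted p = 0.60), Krt18 (3.37, adjusted p = 0.0531), Postn (-3.01, adjusted p = 0.0529), Mmp10 (1.08, adjusted p = 0.378), Cdkn1b (-0.66, adjusted p = 0.147) and Cycs (0.49, adjusted p = 0.0575).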

How the data were processed

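The deposited files hold raw counts of reads per gene for 10 libraries, in the gene count format of STAR, and the reverse-strand count was used (column 4), with the summary entries for unmapped and unassigned reads left out. Over the 7 libraries 17.8 to 22.1% of reads were multimapping, 15.4 to 23.6% had no feature and 0.290 to 0.557% were ambiguous. STAR 2.5.0a, Trim Galore 0.4.3, bcl2fastq 2.17 and the build mm10 are named in the submitters' processing notes, and no source used here gives the annotation release. Gene names were matched for 40217 of 41091 identifiers, and the unmatched identifiers held at most 0.272% of a library's counts.

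Counts from all 10 libraries entered a quasi-likelihood fit in edgeR 4.0.16 (R 4.3.3) with the group as the only term, after filterByExpr with a minimum count of 10 and with TMM scaling. P-values were adjusted over the 16669 genes tested (Benjamini-Hochberg, threshold 0.05), and SE is the log2 fold change over the square root of its F statistic. On simulated counts with 200 changed genes, the fit recovered 26% of changes of 2-fold and 70% of those of 4-fold, with 1 false call in 97. The simulation changed 200 of 16669 genes and drew each count independently, whereas 5478 genes passed in the data. It held no shift of a library shared by many genes, so its rates do not give the recovery or the false calls here. The common biological coefficient of variation was 0.375, and the median 95% half-width of a log2 fold change was 0.61. Gene counts per library were 22763014 to 50463172.

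The members and lists were chosen with earlier results of these data known. Genes were named by rule: the CBX genes and fixed markers, the 12 largest changes in each direction (mean of at least 5 CPM, no overlap), the 10 smallest p-values in each direction (mean of at least 20 CPM), in each list up to 6 members by smallest p, genes under 0.1 CPM in one group and at 1 CPM or more in the other, 8 noncoding genes in each direction and the 10 most abundant genes, from which the text names a part; some genes the rule names are not reported here. Ring1, Rnf2, Ezh2, Eed, Col4a3, Col4a4, Mmp10, Alx4, Shox2, Alx1, Pax9, Otx2, Sox11, Pycr1, Slc7a11, Serpinb2, Mmp13 and Mmp3 fall outside the rule. Alternatives were DESeq2 1.42.0, other scalings, filters, strands and thresholds, the replicate block, and libraries left out. Promoter sequences are from RefSeq (GRCm38.p6).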

Additional observations from a re-analysis of the deposited data

Results flagged for a closer look

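A single control library stood far from the other 3 for 21 of the 230 genes named (9.1%), by Dixon's test at its 95% critical value for 4 libraries. Chance alone flags about 5% of groups of independent, normally distributed values. The CPM values were tested without a log scale, the genes share the same 4 libraries and many were chosen by p or fold change. The 9.1% can therefore not be judged against that rate. shCTR 2 was the distant library for 12 genes, shCTR 6 for 6 and shCTR 1 for 3.

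In shCTR 2 genes of connective tissue were high, with Kera at 30.1 CPM, Fmod at 48.5 CPM, Eln at 31.6 CPM, Lpl at 158 CPM, Col1a2 at 5699 CPM, Igfbp7 at 320 CPM, Wnt5a at 319 CPM and Mmp13 at 923 CPM. The same library had the highest summed level of fibroblast markers, 41380 CPM against 8256 to 15450 CPM in the other controls, and the part of this in these values was not tested. Cbx6 at 283 CPM, Glb1 at 94.2 CPM and Dubr at 24.8 CPM were also highest in shCTR 2, and Jarid2, at 15.1 CPM, was lowest there.

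shCTR 6 was high for Krt5 at 336 CPM, Aldh1a2 at 490.0 CPM and Malat1 at 11130 CPM, and low for Xirp2 at 0.403 CPM, H2-T23 at 42.1 CPM and Pdk1 at 21.7 CPM. shCTR 1 was high for Mtf2 at 46.4 CPM, Kng1 at 1.98 CPM and Gria3 at 176 CPM.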

How the results depend on the processing

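The 5478 calls became 6767 with DESeq2, 5433 with RLE scaling and 4369 without a filter on low counts. They became 1586 when tested against a fold of 1.5 and 1844 at an adjusted p of 0.01, and ranged from 2261 to 6193 with 1 library left out, with 2409 without shCTR 1 and 2. Of the 2261 calls without shCBX8 1, 2245 were among the 5478. The 4762 genes that differed from shCBX7 became 1527 against a fold of 1.5 and 1350 at an adjusted p of 0.01, and ranged from 1784 to 6005 with 1 library left out. Cbx8 kept its call and direction under each alternative run. Of 199 named genes that passed, 144 kept the call in all 18 settings other than the fold test, which ended 55 calls.

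The replicate numbers were checked for pairing. Deviations from the group means correlated at 0.198, 0.247 and 0.063 for the numbers 1, 2 and 6. Each of shCTR 1, 2 and 6 correlated best with the shCBX8 library of its own number. For shCTR 6 the lead was small, at 0.063 against 0.053 with shCBX8 1, and shCBX8 6 correlated best with shCTR 1 (0.135). The check does not decide whether the numbers mark pairs, and the main fit did not use them. With a replicate block 6036 genes passed, and the calls of Lpl, Mmp10, Hoxb4, Hoxc6, Hoxb9, Hoxc4 and Cdkn1c ended (adjusted p = 0.050 to 0.0904). With library size as the only scaling, those of Phc3, Bmi1, Jarid2, Tap1, Cdkn1a and Cdkn1c ended (0.0518 to 0.327). After forward-strand counts were subtracted those of Grhl2, Col4a3 and Sox2 ended (0.0507 to 0.0529), with unstranded counts that of Tap1 (0.0505), and with only the 2 groups compared those of Kera, H2-T23 and Cdkn1c (0.0520 to 0.0582).

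Some counts over gene lists moved by more than 1.5 times. With the replicate block the falls were 9 and the rises 5 among FGF and PDGF genes, the falls 20 among fibroblast markers, 12 among proteases, 7 among antigen processing genes, 7 among interferon-stimulated genes and 9 in the unfolded protein response, and the rises 27 among junction genes, 26 among developmental factors, 8 among basal cell markers and 1 among Hox genes. DESeq2 gave 15 falls of fibroblast markers, 10 of small leucine-rich proteoglycans and 4 of sarcomere genes, and unstranded counts 5 of the last. With only the 2 groups compared, 6 elastic fibre genes fell, 5 fibroblast markers fell and 9 oxidative phosphorylation genes rose.

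Among the named genes, signs turned only for some that had not passed. With library size alone, log2 fold changes were 0.028 for Cbx7, 0.16 for Ring1, 0.10 for Rnf2 and 0.046 for Cdkn2b, and with the replicate block 0.094 for Cbx7 and 0.028 for Cdkn2b. Without shCTR 1 and 2 they were 0.30 for Cbx7, 0.016 for Ring1, 0.12 for Rnf2, 0.94 for Acta2, 1.70 for Thy1, -0.063 for Slc7a11 and 0.10 for Mmp3. Ring1 was at 0.00056 without a filter and 0.019 with unstranded counts, and Ptprc at -0.55 with unstranded counts. With 1 library left out, values ranged from -0.16 to 0.065 for Ring1, -0.24 to 0.057 for Rnf2, -0.040 to 1.83 for Cyp2g1, -2.63 to 0.70 for Thy1, -0.21 to 0.80 for Pecam1, -0.24 to 0.58 for Ptprc, -0.29 to 0.026 for Cdkn2b, -0.16 to 0.69 for Slc7a11 and -4.78 to 0.24 for Mmp3. The causes were not tested. Depth limits the Hox genes named, at 1.13 CPM or below, and Myod1 and Myog, which could not be tested.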
